A study of Homo sapiens with 12 samples.

Results

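The genes followed here mark immature thymocytes. They are the recombinase genes RAG1 and RAG2, the terminal transferase gene DNTT, the CD1 genes CD1A, CD1B, CD1C, CD1D and CD1E, and the progenitor antigen gene CD34. Members were chosen by gene symbol. Of these 9 genes, 8 were among the 17589 genes of the expression table and all 8 passed the filter on low counts. DNTT has no row in the table and was not analysed here.

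YT cells, a line of human NK cells that lacks CD16a, gave unstimulated RNA after lentiviral transduction and sorting of the eGFP-positive cells. CTRL cells carried eGFP alone. The hnCD16 cells carried a high-affinity, non-cleavable CD16a, FR1 cells carried hnCD16-2B4-DAP10-CD3ζ, in which the CD16a ectodomain is joined to signalling domains of 2B4, DAP10 and CD3ζ, and FR2 cells carried hnCD16-DAP10-CD3ζ. The hnCD16, FR1 and FR2 constructs were driven by the human EF1A promoter, and each of the 4 groups had 3 libraries. The labels do not say whether the 3 libraries of a group came from separate cultures, so the p-values measure only the spread between these libraries.

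RAG1 and RAG2 form the enzyme that cuts antigen receptor genes at recombination signals, the first step of V(D)J recombination in developing T and B cells. DNTT adds nucleotides to the cut ends, and the ends are then closed by the ubiquitous machinery of non-homologous end joining. CD1 proteins resemble MHC class I, pair with β2-microglobulin and present lipids to T cells. CD1A, CD1B, CD1C and CD1E are well known from cortical thymocytes and dendritic cells, and CD1D presents lipids to invariant NKT cells. CD34 is a surface sialomucin of haematopoietic progenitors, including the earliest cells that seed the thymus.

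The libraries held between 17714550 and 18729013 counts. FCGR3A, the gene of CD16a, was at 0 counts in every CTRL library and at 453 to 1132 counts in every library of the other groups. That difference was at least 166-fold in hnCD16 against the floor of 3 counts per library, and reads of the construct and of the cells' own gene cannot be told apart. The marker lists separated the groups in pairs. The summed level of 12 NK cell markers was 35.2 to 42.0 CPM (each library's counts scaled to a common total) in CTRL and hnCD16 and 1461 to 1558 CPM in FR1 and FR2. Of those 12 markers, 4 (KLRD1, NCR3, NKG7 and EOMES) were at 1 CPM or more in every CTRL and hnCD16 library, against 8 in FR1 and FR2, where TYROBP was at 0. Most of the higher sum came from NKG7, PRF1 and KLRC1. Their levels were 804, 423 and 172 CPM in FR1 and 745, 543 and 172 CPM in FR2. NCR3 went the other way, from 5.58 CPM in hnCD16 to 0.825 CPM in FR1 and 0.131 CPM in FR2. KLRD1 differed little, at 11.7 CPM in CTRL and 14.5 CPM in both FR1 and FR2. The 8 T cell markers in the table, including CD3D, CD3E and LCK, were all at 1 CPM or more in CTRL and hnCD16. Their sums were 932 to 1044 CPM there, against 373 to 464 CPM in FR1 and FR2. In FR1 5 and in FR2 6 of the 8 were still at 1 CPM or more. CD3D fell from 521 CPM in hnCD16 to 0.0578 CPM in FR1 and 0.0937 CPM in FR2, and LCK from 68.5 CPM to 0.0383 and 0.0564 CPM. Within the list CD28 went the other way, from 3.09 CPM in hnCD16 to 92.4 CPM in FR1 and 119 CPM in FR2, and the levels of ZAP70 were 65.3, 122 and 147 CPM. The levels of CD247, the gene of CD3ζ, were 82.0, 104 and 120 CPM, where reads of the construct and of the cells' own gene cannot be told apart. By these markers the CTRL and hnCD16 libraries went against the NK cell label, while the FR1 and FR2 libraries carried most of the list. Every comparison of a fusion receptor with CTRL or hnCD16 rests on libraries that differ in this way, and the construct and whatever else separates the pairs of groups cannot be told apart.

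Among the other lists, the summed level of the dendritic and myeloid cell markers was 3.90 to 5.42 CPM in CTRL and hnCD16 and 35.7 to 60.5 CPM in FR1 and FR2, and ITGAX made up most of the higher sum (0.663 CPM in hnCD16, 29.8 CPM in FR1 and 46.8 CPM in FR2). CSF1R and ITGAM were also higher, at 0.647 and 0.232 CPM in hnCD16 and 1.96 and 1.88 CPM in FR1. IRF8 was at 0 in FR1, and FCER1A was at no more than 2 counts in any library. The B cell markers summed to between 41.5 and 53.4 CPM in all libraries, but its members moved in opposite directions. PAX5, a transcription factor of B cells, was at 0.0717 CPM in hnCD16 and made up most of the sum in FR1 (40.0 CPM) and FR2 (46.3 CPM), while CD79A and CD79B were at 6.43 and 4.71 CPM in hnCD16 and 0.269 and 0.0386 CPM in FR1. VPREB1, a surrogate light chain gene of early B cells, had the highest level of the list in CTRL (27.3 CPM) and hnCD16 (27.1 CPM). It was at 0 in FR1 and FR2. The stem and endothelial cell markers summed to 82.0 to 118 CPM in CTRL and hnCD16 and to 1.5 to 2.63 CPM in FR1 and FR2, with MECOM at 1 CPM or more in the former only. PECAM1 was at 101 CPM in hnCD16 and stayed just above 1 CPM in FR1 (1.11 CPM) and FR2 (1.49 CPM). The part of these cell types in the levels of the RAG and CD1 genes was not tested.

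Bases before the start of RAG2, CD1C and CD1E are shown because these genes were at 0 counts in every FR1 and FR2 library. They come from RefSeq on GRCh38.p14, read 5′ to 3′ on the strand of the gene, and stop before the start that GENCODE gives the gene. Capitals mark 3 motifs, each searched on both strands and so also shown as its reverse complement. One is CTTTGT, a core of TCF and LEF sites, which was searched together with the variant spelled CTTTGA. Another is TGTGGT, a RUNX core. The last is AGATAA, known from sites of the GATA family. The marked matches do not overlap each other.
RAG2, chr11:36598280-36598486, minus strand: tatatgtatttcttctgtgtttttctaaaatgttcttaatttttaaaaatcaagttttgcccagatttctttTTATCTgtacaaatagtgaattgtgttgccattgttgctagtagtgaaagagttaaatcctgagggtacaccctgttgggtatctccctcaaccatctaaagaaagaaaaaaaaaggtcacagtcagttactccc
CD1C, chr1:158289673-158289922, plus strand: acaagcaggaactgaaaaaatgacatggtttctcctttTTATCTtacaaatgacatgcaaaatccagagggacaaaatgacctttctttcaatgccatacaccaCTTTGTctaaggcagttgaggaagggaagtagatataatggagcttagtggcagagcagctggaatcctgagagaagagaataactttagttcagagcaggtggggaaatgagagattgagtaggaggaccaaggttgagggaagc
CD1E, chr1:158353644-158353695, plus strand: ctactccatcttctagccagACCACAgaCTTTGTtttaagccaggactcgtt

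Of the 9 genes, 8 had RefSeq promoter windows of 300 bases, 10 windows in all, and CD1B had none. Either form of the TCF and LEF core was found in 4 of these 10 windows and in 26.2% of the 35116 windows of the whole table. TGTGGT was in 2 windows (13.1% of all), AGATAA in 4 (10.3% of all), CANNTG, the E-box, in 8 (68.7% of all) and AGGAAG, an ETS core, in 4 (33.6% of all). TATAAA was in 0 of the 10 windows, compared with 11.5% of all windows. The motifs were picked after values had been seen, and a match is a description of the letters only.

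RAG1 (NCBI Gene 5896), the catalytic subunit of the recombinase, was expressed in CTRL and hnCD16 cells and had 21 counts or fewer in each FR1 and FR2 library. In such bulk RNA, fewer cells that express a gene and less RNA per cell cannot be told apart. Its level was 50.1, 48.1 and 50.6 CPM in the CTRL libraries and 41.5, 45.7 and 43.7 CPM in the hnCD16 libraries. The FR1 libraries held 0.231, 0.289 and 0.628 CPM and the FR2 libraries 0.560, 0.849 and 1.20 CPM, from 4 to 21 counts a library. Every FR1 and FR2 library was far below every CTRL and hnCD16 library. RAG1 was 112-fold lower in FR1 than in hnCD16 (log2 fold change −6.80, SE 0.322, edgeR adjusted p = 5.60e-17) and 49.9-fold lower in FR2 (log2 fold change −5.64, SE 0.218, edgeR adjusted p = 9.40e-17). Against CTRL the log2 fold changes were −6.99 in FR1 and −5.83 in FR2.

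RAG2 (NCBI Gene 5897), the subunit that supports RAG1 and reads histone H3 methylation, was expressed beside it. The CTRL libraries held 202, 212 and 212 counts (10.3, 10.6 and 10.5 CPM). The hnCD16 libraries held 175, 172 and 162 counts (9.52, 9.29 and 8.61 CPM), and all 6 FR1 and FR2 libraries held 0. The groups with a fusion receptor therefore did not overlap with the others, and RAG2 was at least 52.9-fold lower in FR1 and at least 53.8-fold lower in FR2 than in hnCD16, with the floor set at 3 counts per library (edgeR adjusted p = 5.31e-12 and 4.61e-12). Against CTRL the bounds were 60.7-fold for FR1 and 61.8-fold for FR2. These bounds cover counting error only.

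**Figure D1:**
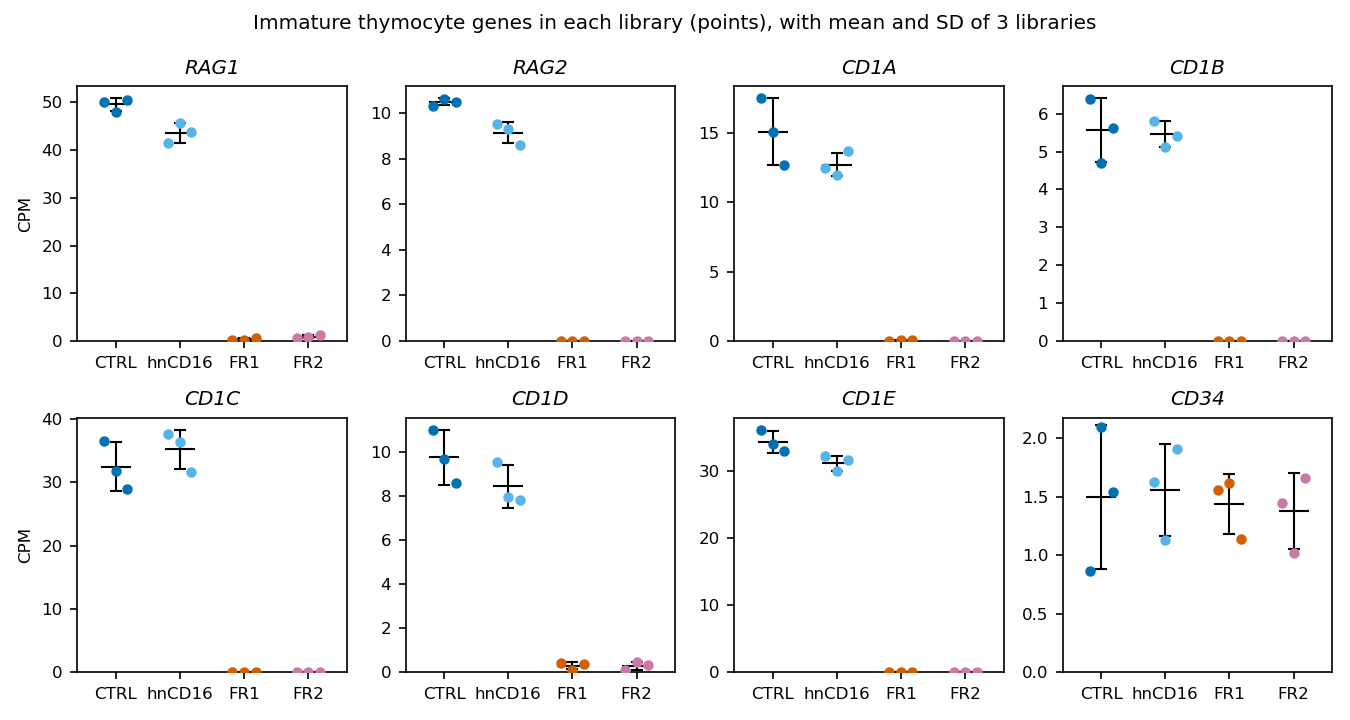
Level of each gene in CPM (vertical axis, linear, from 0) in the 12 libraries, by group; points are libraries, and horizontal marks and bars are the mean and SD of 3 libraries. The RAG and CD1 genes sit near 0 in FR1 and FR2 and well above it in CTRL and hnCD16, whereas CD34 lies between 0.869 and 2.1 CPM in all groups.

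The CD1 genes followed the RAG genes in all 4 comparisons of a fusion receptor with CTRL or hnCD16. CD1E (NCBI Gene 913), whose product helps to load lipids inside the cell, held 36.2, 34.0 and 33.0 CPM in CTRL, 32.2, 30.0 and 31.6 CPM in hnCD16, and 0 counts in each of the 6 FR1 and FR2 libraries. CD1C (NCBI Gene 911), a lipid presenter of thymocytes and dendritic cells, held 36.6, 31.8 and 29.0 CPM in CTRL, 37.6, 36.3 and 31.7 CPM in hnCD16 and likewise 0 counts in FR1 and FR2. Both genes were on in every library without a fusion receptor and at 0 in every library with one. CD1E was at least 181-fold lower in FR1 and at least 184-fold lower in FR2 than in hnCD16 (edgeR adjusted p = 1.53e-14 and 1.35e-14), and CD1C at least 204-fold and at least 208-fold lower (edgeR adjusted p = 3.83e-13 and 3.43e-13). Against CTRL the bounds for CD1E were 199-fold in FR1 and 203-fold in FR2, and those for CD1C were 188-fold and 191-fold.

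CD1A (NCBI Gene 909), the classic antigen of cortical thymocytes and Langerhans cells, held 17.5, 15.1 and 12.7 CPM in CTRL and 12.5, 12 and 13.7 CPM in hnCD16. Its counts were 0, 1 and 1 in the FR1 libraries and 0 in the FR2 libraries. With so few counts, the ratio of hnCD16 to FR1 was 332 with a 95% counting interval of 91.5 to 2746 (edgeR adjusted p = 1.89e-12), and that of CTRL to FR1 was 393 (108 to 3249). In FR2 CD1A was at least 75.0-fold lower than in hnCD16 and at least 89.0-fold lower than in CTRL. CD1B (NCBI Gene 910), which presents long-chain mycobacterial and self lipids, held 6.39, 4.70 and 5.62 CPM in CTRL, 5.82, 5.13 and 5.42 CPM in hnCD16 and 0 counts in FR1 and FR2. It had the fewest counts of the CD1 genes in CTRL and hnCD16, 94 to 125 a library, and its bounds were accordingly the smallest, at least 31.6-fold in FR1 and at least 32.2-fold in FR2 against hnCD16 (edgeR adjusted p = 4.62e-10 and 4.03e-10).

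CD1D (NCBI Gene 912) was the CD1 gene that kept counts in every FR1 and FR2 library. It held 11.0, 9.66 and 8.56 CPM in CTRL and 9.52, 7.94 and 7.81 CPM in hnCD16. The FR1 libraries held 0.405, 0.116 and 0.400 CPM and the FR2 libraries 0.112, 0.453 and 0.343 CPM, from 2 to 8 counts each. The groups with and without a fusion receptor did not overlap, and CD1D was 26.8-fold lower in FR1 than in hnCD16 (log2 fold change −4.75, SE 0.416, edgeR adjusted p = 1.94e-11) and 27.3-fold lower in FR2 (log2 fold change −4.77, SE 0.416, edgeR adjusted p = 1.63e-11). Against CTRL the log2 fold changes were −4.96 and −4.98.

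**Figure D2:**
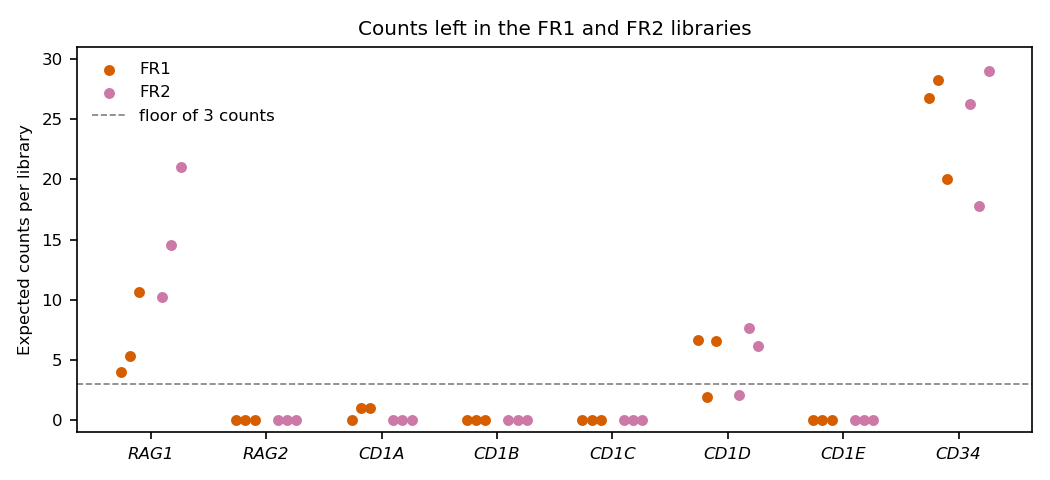
Expected counts (vertical axis, linear) of the 8 genes in the 3 FR1 and the 3 FR2 libraries, each point a library; the dashed line is the floor of 3 counts. RAG1 (4.04 to 21 counts), CD1D (1.93 to 7.65 counts) and CD34 (17.81 to 29.04 counts) have reads in every library, CD1A has 1 count in each of 2 FR1 libraries, and the other genes are at 0.

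CD34 (NCBI Gene 947) was low in all 4 groups and did not follow the other genes. It held 0.869, 2.1 and 1.54 CPM in CTRL, 1.63, 1.13 and 1.91 CPM in hnCD16, 1.56, 1.62 and 1.14 CPM in FR1, and 1.45, 1.02 and 1.66 CPM in FR2. All 4 groups overlapped. The log2 fold change of FR1 against hnCD16 was −0.12 with a 95% interval of −0.71 to 0.48, and that of FR2 was −0.18 with an interval of −0.78 to 0.42. At 17 to 42 counts a library, a difference smaller than these intervals could not be detected.

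Of the 8 genes, 7 were lower and 0 were higher in each of the 4 comparisons of FR1 or FR2 with hnCD16 or CTRL, CD34 being the exception. These comparisons had many differentially expressed genes, called DEGs at a log2 fold change of 1 or more in size with adjusted p no higher than 0.05. Against hnCD16, 38.3% of the 13657 genes tested were DEGs in FR1 (19.6% lower and 18.7% higher) and 39.5% in FR2 (19.8% lower and 19.6% higher). Against CTRL, 38.0% were DEGs in FR1 (19.8% lower and 18.3% higher) and 38.2% in FR2 (19.6% lower and 18.7% higher). The same 7 genes had every FR1 and FR2 library below every CTRL and hnCD16 library, as did 33.0% of all genes tested. At most 3 counts in every FR1 and FR2 library together with at least 1 CPM in every other library was found in 3.36% of genes, among them RAG2, CD1A, CD1B, CD1C and CD1E. The median log2 fold change of all genes was −0.01 for FR1 and −0.03 for FR2 against hnCD16.

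Levels of different genes were compared in TPM, which corrects for transcript length and library size. In CTRL the mean levels were 37.2 ± 0.866 TPM for CD1E, 26.7 ± 2.0 for CD1C, 17.7 ± 2.0 for CD1A and 14.8 ± 0.771 for RAG1 (SD, n = 3). CD1D (9.40 ± 1.22 TPM), RAG2 (8.46 ± 0.610) and CD1B (8.04 ± 1.08) followed, and CD34 came last at 0.377 ± 0.156 TPM. Neighbours from CD1E to CD1D in this order did not overlap between libraries, whereas CD1D, RAG2 and CD1B overlapped. In hnCD16 the order was CD1E at 31.4 ± 1.85 TPM, CD1C at 26.2 ± 1.40, CD1A at 13.5 ± 1.29 and RAG1 at 11.7 ± 0.857. CD1D (7.51 ± 0.562 TPM), CD1B (7.09 ± 0.361) and RAG2 (6.71 ± 0.0757) again formed a lower set in which neighbours overlapped. In FR1 and FR2 CD34 led with 0.307 and 0.297 TPM, above CD1D at 0.150 TPM in both and RAG1 at 0.0933 and 0.217 TPM, and in FR2 CD34 and RAG1 overlapped.

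Between hnCD16 and CTRL, which differ by the receptor without added signalling domains, 0 of the 8 genes were DEGs, while 0.527% of all genes tested were. In DESeq2 and limma the count was 0 as well, and 2 genes, RAG1 and CD1A, had an unadjusted p under 0.05 in edgeR. RAG1 had a log2 fold change of −0.19 (95% interval −0.33 to −0.04, edgeR adjusted p = 0.0520) and CD1A one of −0.24 (−0.47 to −0.02, edgeR adjusted p = 0.0998). RAG2 (−0.20), CD1D (−0.21), CD1E (−0.14) and CD1B (−0.03) were also below 0, and CD1C (0.12) and CD34 (0.05) above it. So 6 of the 8 values were below 0, compared with 50.9% of all genes tested. For RAG1, RAG2 and CD1E every hnCD16 library lay below every CTRL library, as was so for 24.8% of all genes.

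**Figure D3:**
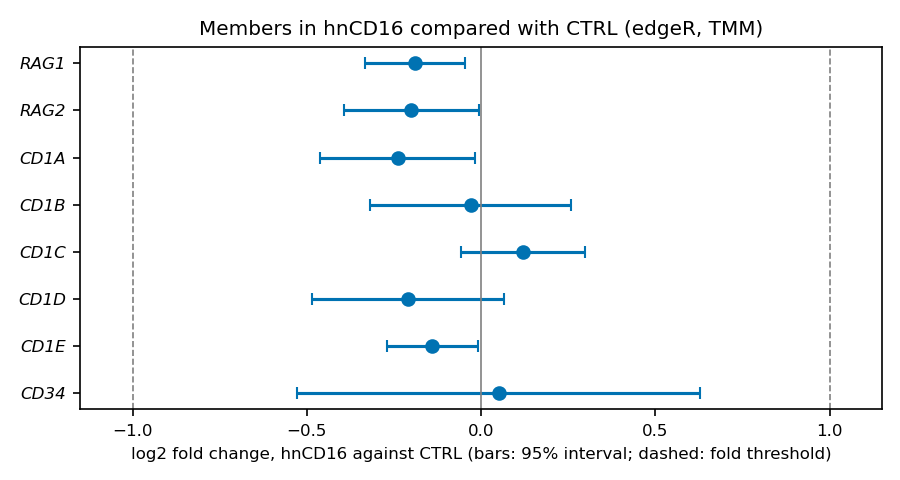
Log2 fold change of each gene in hnCD16 against CTRL (horizontal axis) from edgeR with TMM scaling; points are estimates, bars are 95% intervals, and dashed lines mark the fold threshold. All estimates lie between −0.24 (CD1A) and 0.12 (CD1C), and the interval of CD34, −0.53 to 0.63, is the widest. The intervals are normal approximations from the SE, unlike the quasi-likelihood p-values. That of CD1E (−0.27 to −0.01) leaves out 0 although its unadjusted edgeR p was 0.0574.

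These small differences depended on the scaling. With library size alone, the median log2 fold change of all genes between hnCD16 and CTRL moved from −0.01 to −0.12, and 4 of the 7 genes other than CD34 had an edgeR adjusted p of at most 0.05 at any fold. With limma on log2(TPM + 1) it was 5 of 7, with all 7 below 0 and the median of all genes at −0.09. Under TMM 0 of these 7 did so, compared with 43.0% of all genes tested. The share of all genes at that adjusted p was not counted for library size alone or for limma. The counts of 4 and 5 of 7 are therefore a description only. The summed TPM of the CD1 genes was 99.1 ± 6.36 in CTRL and 85.7 ± 2.13 in hnCD16 (SD, n = 3; two-sided exact permutation p = 0.10, the smallest that 3 against 3 libraries can give, and 0.350 after Benjamini-Hochberg adjustment over 7 tests). CD1E made up 37.6% ± 1.51 of that sum in CTRL and 36.6% ± 1.35 in hnCD16, and CD1C 27.0% ± 0.374 and 30.6% ± 2.24 (SD, n = 3). For CD1C the exact permutation p was again 0.10, with an adjusted value of 0.350. The TPM ratio of RAG1 to RAG2 was 1.75 ± 0.0854 in CTRL and 1.75 ± 0.118 in hnCD16 (SD, n = 3).

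Between FR1 and FR2, whose constructs differ by the 2B4 domain, 1 of the 8 genes was a DEG. Of all genes tested, 1.93% were DEGs in either direction and 1.49% were lower in FR1. FCGR3A also differed, although below the fold threshold, at 32.4 CPM in FR1 and 61.3 CPM in FR2 (log2 fold change −0.92, edgeR adjusted p = 4.07e-08). The part of the FCGR3A level in the differences given below was not tested. RAG1 was 2.24-fold lower in FR1 (log2 fold change −1.16, SE 0.381, edgeR adjusted p = 0.0184), although the libraries overlapped, since FR1 replicate 3 (0.628 CPM) lay above FR2 replicate 1 (0.560 CPM). The call was lost without FR1 replicate 1 (log2 fold change −0.93), FR1 replicate 2 (−1.0) or FR2 replicate 3 (−0.86), and with limma on TPM. CD1D (log2 fold change 0.03, 95% interval −1.09 to 1.14) and CD34 (0.06, −0.55 to 0.68) were not DEGs, and the sign of both flipped when single libraries were left out. RAG2, CD1B, CD1C and CD1E were at 0 in both groups, so no fold is given, and CD1A had 2 counts in all.

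The reads were also divided among RefSeq transcripts, an estimate that is uncertain where transcripts share most of their sequence. For RAG1, NM_000448 took 87.1% ± 2.29 of the counts in CTRL and 84.0% ± 5.87 in hnCD16 (SD, n = 3). In 5 of the 6 FR1 and FR2 libraries all RAG1 counts were given to NM_001377277 instead, and in FR2 replicate 3 all 21 counts were given to NM_000448. NM_001377277 held 0 counts in 4 of the 6 CTRL and hnCD16 libraries and 130.82 and 111.71 counts in the others. For RAG2, NM_000536 took 73.0% ± 12.1 in CTRL and 79.4% ± 12.4 in hnCD16 (SD, n = 3). The ranges of these RAG1 and RAG2 shares overlapped between CTRL and hnCD16.

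Among the CD1 genes, CD1B reads went almost entirely to 1 transcript, NM_001764, with 95.4% ± 4.12 in CTRL and 92.0% ± 0.500 in hnCD16 (SD, n = 3). CD1E reads were spread over 15 transcripts. The leading one, NM_001042583, took 20.8% to 25.2% of the counts in CTRL and 32.4% to 36.1% in hnCD16, with means of 22.5% ± 2.34 and 34.7% ± 2.0 (SD, n = 3). These ranges did not overlap, while the CD1E gene level differed by a log2 fold change of −0.14. The difference in shares was not tested, and how many other genes show such a separation was not counted. Other CD1E transcripts varied widely within a group. NM_001042586, for example, held 49.14, 0 and 22.62 counts in CTRL and 93.08, 0 and 86.47 counts in hnCD16. The leading transcripts of CD1A (NM_001763), CD1C (NM_001765) and CD1D (NM_001371761) took 56.8%, 67.3% and 35.1% in CTRL and 58.0%, 62.9% and 39.3% in hnCD16, with overlapping ranges. In FR1 and FR2 the CD1D counts were given to other transcripts than the leading one. The CD1 genes are paralogs with similar exons, and CD1C lies within a long RefSeq model of CD1B, so reads that match more than 1 of them were divided by estimate.

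RAG1 and RAG2 lie side by side on chromosome 11 and overlap in GENCODE v44 on GRCh38 (RAG1 at chr11:36510372-36593156 on the plus strand, RAG2 at chr11:36575574-36598279 on the minus strand). A strand setting for the counting is not given in the sources used here, so reads from overlapping genes on opposite strands may not have been told apart. IFTAP, which overlaps RAG2, held between 4 and 17 counts wherever no fusion receptor was present and 0 in FR1 and FR2. PRR5L, 45.2 kb from the RAG pair, held 82 to 129 counts in CTRL and hnCD16 and 1 to 10 in FR1 and FR2 (log2 fold change −5.09 in FR1 against hnCD16, edgeR adjusted p = 7.24e-10). TRAF6, 0.10 kb away, differed less, with log2 fold changes against hnCD16 of −0.91 (FR1) and −1.06 (FR2), and those of COMMD9 were −0.75 and −0.95. Of the 4 neighbours tested within 500 kb, 2 were lower and 0 higher in FR1 than in hnCD16, and 3 were lower in FR2. Of all genes tested, 19.6% were lower in FR1 and 19.8% in FR2, and with so few neighbours these counts, like those of the loci that follow, are a description only.

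The CD1 genes span 180 kb on chromosome 1 (chr1:158178030-158357553) in the order CD1D, CD1A, CD1C, CD1B and CD1E. In the same window of 500 kb on each side, 7 neighbours reported here were tested, of which 1 was lower and 4 were higher in FR1 than in hnCD16, with the same counts for FR2. Of all genes, 19.6% were lower and 18.7% higher in FR1. KIRREL1, an adhesion protein gene 77.8 kb away on the CD1D side, was the lower one, with 423 to 687 counts in CTRL and hnCD16 and 0 or 1 in FR1 and FR2. The higher ones were FCRL1, FCRL2, CD5L and MNDA. CD5L, which encodes a scavenger protein of macrophages, held 0 or 1 counts in CTRL and hnCD16 and 63 to 119 in FR1 and FR2, and MNDA, a myeloid nuclear antigen, 0 or 1 and 19 to 39. The called neighbours on the CD1D side moved in both directions, while of those reported here on the CD1E side MNDA was higher, and OR6Y1 and OR6K3 were not DEGs.

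**Figure D4:**
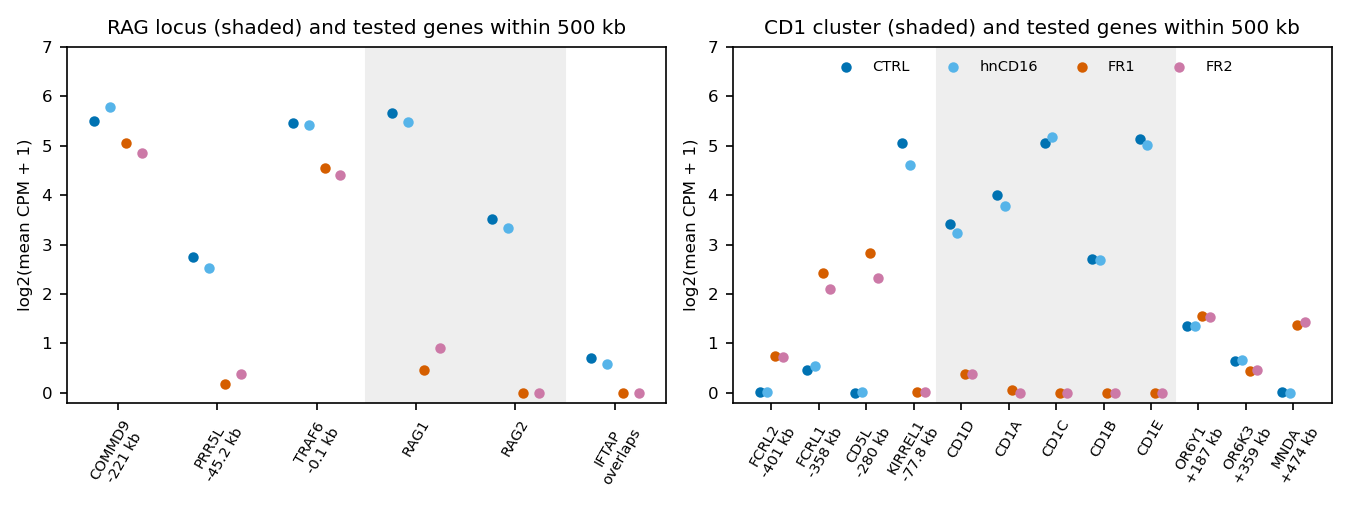
Mean level of 3 libraries as log2(CPM + 1) (vertical axis) for the RAG genes and the CD1 genes (shaded) and for the tested protein-coding genes within 500 kb, in chromosome order along the horizontal axis with the distance in kb to the edge of the cluster. The shaded genes and PRR5L and KIRREL1 are low in FR1 and FR2 and higher in CTRL and hnCD16, while FCRL1, FCRL2, CD5L and MNDA show the opposite order.

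Around CD34, 1 of 4 tested neighbours was lower (CR2, 32 to 59 counts in CTRL and hnCD16 and 0 in FR1 and FR2) and 1 was higher (CD55) in FR1 than in hnCD16. Around DNTT, 0 of 9 tested neighbours were lower and 4 were higher, with the same 19.6% lower and 18.7% higher among all genes. BLNK, 32.8 kb from DNTT, was not a DEG (log2 fold change 0.27 in FR1 against hnCD16, edgeR adjusted p = 0.0788). The neighbours of all 4 loci named here were picked after their values were seen.

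The genes that complete V(D)J recombination after the RAG cut were mostly not DEGs. All 16 genes of this list, which holds end-joining factors, RAG cofactors and partners of DNTT, were tested. In FR1 against hnCD16, 1 of the 16 (6.25%) was a DEG, HMGB1, a DNA-bending cofactor of the RAG complex, against 38.3% of all genes. In FR2 against hnCD16, and in FR2 against CTRL, 2 (12.5%) were DEGs, and in FR1 against CTRL 3 (18.8%) were, 2 lower and 1 higher, against 38.0% to 39.5% of all genes. HMGB1 fell from 3562 ± 98.1 CPM in hnCD16 to 944 ± 26.6 CPM in FR1 (SD, n = 3; log2 fold change −1.92, SE 0.0491, edgeR adjusted p = 3.05e-16) and was at 918 ± 6.97 CPM in FR2. With library size alone, or without hnCD16 replicate 3, 2 of the 16 were DEGs. The median log2 fold change of the list was −0.32 in FR1 and −0.45 in FR2 against hnCD16. XRCC5 and XRCC6, the Ku subunits that hold broken ends, were at 1345 and 1474 CPM in hnCD16 and at 710 and 1184 CPM in FR1. LIG4, the ligase, was at 111 CPM in hnCD16 and 87.9 CPM in FR1. In FR2 the levels of XRCC5, XRCC6 and LIG4 were lower still, at 559, 954 and 74.7 CPM.

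Transcription factors that act on the RAG genes or in early lymphoid cells were mostly lower. Of 20 listed, 19 were tested, and 13 were lower and 3 higher in FR1 than in hnCD16, with the same counts in FR2. Together 84.2% were DEGs, against 38.3% (FR1) and 39.5% (FR2) of all genes, which were split almost evenly between lower and higher. MYB, a driver of thymocyte proliferation and survival, fell from 706 ± 23.4 to 66.1 ± 1.75 CPM in FR1 (SD, n = 3; log2 fold change −3.42, SE 0.0458, edgeR adjusted p = 9.31e-20). TCF7 and LEF1, the HMG-box factors of early T cell development, fell from 281 ± 7.69 to 2.17 ± 0.579 CPM and from 244 ± 11.2 to 6.03 ± 0.343 CPM (SD, n = 3; log2 fold changes −7.01 and −5.34). Not all regulators went down. FOXO1, an activator of the RAG genes in B cells, rose from 0.162 ± 0.0549 to 31.3 ± 1.71 CPM, and ID2, the inhibitor of E proteins needed in NK cells, rose from 0.968 ± 0.324 to 240 ± 8.48 CPM (SD, n = 3; log2 fold changes 7.54 and 7.94, edgeR adjusted p = 1.23e-17 and 2.51e-19). MEIS1, a homeobox gene of stem cells, rose from 0.126 to 2.69 CPM, and its log2 fold change of 4.35 rests on 1 to 4 counts in the hnCD16 libraries. In hnCD16 against CTRL 0 of these genes were DEGs, and the log2 fold changes of TCF7 and LEF1 were −0.51 and −0.32.

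Genes that assemble, load and move CD1 proteins were DEGs at a share near that of all genes. Of 21 listed, 20 were tested, and 8 of them (40.0%) were DEGs in FR1 against hnCD16, against 38.3% of all genes. Of the 8, 7 were higher and 1 was lower, where 18.7% of all genes were higher and 19.6% lower, and this difference in direction was not tested. B2M, the gene of β2-microglobulin, rose from 697 ± 40.4 to 4654 ± 208 CPM (SD, n = 3; log2 fold change 2.74, SE 0.0570, edgeR adjusted p = 2.46e-17). CD74, the invariant chain of MHC class II, rose from 0.412 ± 0.0795 to 324 ± 17.9 CPM (SD, n = 3; log2 fold change 9.59), and CANX, the chaperone calnexin, from 748 ± 25.6 to 1642 ± 21.2 CPM (log2 fold change 1.13). The last was below the fold threshold in FR2 (log2 fold change 0.75). GM2A, a lipid transfer protein that loads CD1D, fell from 68.2 ± 2.09 to 25.5 ± 1.43 CPM (SD, n = 3; log2 fold change −1.42, edgeR adjusted p = 3.47e-13). B2M, CANX and CD74 also serve MHC molecules or general protein folding, so this list is not particular to CD1.

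Other markers of thymocyte stages fell in most cases. Of 24 listed, 23 were in the table and 20 were tested, and 15 were lower and 1 higher in FR1 than in hnCD16, against 14 lower and 2 higher in FR2. That was 80.0% in either comparison, against 38.3% and 39.5% of all genes. Against CTRL, 15 were lower in FR1 and 14 in FR2, and 0 were higher. CD99, an adhesion antigen that is high on cortical thymocytes, fell from 264 ± 22.4 to 3.30 ± 0.413 CPM in FR1 (SD, n = 3; log2 fold change −6.32, SE 0.125, edgeR adjusted p = 3.81e-19). NOTCH1, the receptor that commits cells to the T lineage, fell from 186 ± 14.4 to 51.8 ± 3.99 CPM (SD, n = 3; log2 fold change −1.84). CD38, an ectoenzyme of early thymocytes and activated lymphocytes, fell from 162 ± 7.51 to 62.9 ± 5.34 CPM in FR1 (SD, n = 3; log2 fold change −1.36), but its log2 fold change in FR2 was only −0.29. CD38 was also a DEG between FR1 and FR2 (log2 fold change −1.07, edgeR adjusted p = 2.50e-09). TOX, a nuclear factor of thymocyte and NK cell development, rose from 39.3 ± 2.09 to 82.2 ± 1.5 CPM (SD, n = 3; log2 fold change 1.07), close to the threshold, and was not a DEG in FR1 against CTRL (log2 fold change 0.85). PTCRA, KIT and PROM1 did not pass the filter on low counts. They were near 0 in CTRL and hnCD16 as well, where PTCRA held 3 to 5 counts a library, KIT 0 and PROM1 0 to 2.

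For each gene the 3 genes with the most similar profile were sought among 12339 genes with at least 1 CPM, by the root mean square difference of centred log2(CPM + 1) over the 12 libraries. RAG2 was nearest to GJA3 (0.0330), DAB2 (0.0548) and USP40 (0.0833), and GJA3 held 157 to 206 counts in CTRL and hnCD16 and 0 in FR1 and FR2. RAG1 was nearest to STMN3 (0.161), MYO18B (0.178) and PITPNM2 (0.184). CD1A was nearest to MARCHF8, FADS3 and CAMKV, CD1B to XPNPEP2, CTSG and NUP62CL, CD1C to ARMCX5, NDFIP2 and CENPV, CD1D to LIMS2, GPR137B and TCEAL1, and CD1E to RFLNB, GRAP2 and ZDHHC23, with differences between 0.0527 and 0.141. None of these was another of the 9 genes. All these profiles share the split of the libraries into 2 sets, and on log2(TPM + 1) 1 of the 3 nearest genes (FADS3) stayed the same for CD1A and 0 for each of the others. CD34 was nearest to RAB11FIP2 (0.142), RNASE10 (0.144) and IFT81 (0.152).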

How the data were processed

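RNA from YT cells of 4 groups (CTRL, hnCD16, FR1, FR2) with 3 libraries each was sequenced. The methods give ribosomal RNA depletion, the labels also oligo(dT) beads. Per the study's methods, the authors cleaned reads with SOAPnuke, used HISAT2 2.1.0 for mapping to GRCh38.p13 and quantified them with RSEM 1.3.1. The submitters' processing notes also name Bowtie2 2.3.4.3. The deposited values used here are RSEM expected counts, in which 1 read may be shared among similar genes, and TPM values that the authors made from the same reads. Columns of FPKM, normalized counts and group averages were not used.

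Expected counts were rounded and tested with edgeR 4.0.16 (R 4.3.3), its quasi-likelihood test after TMM normalization and filterByExpr, in 1 fit of all 12 libraries. The thresholds, a log2 fold change of 1 or more in size and an adjusted p (Benjamini-Hochberg, over 13657 genes) no higher than 0.05, follow the study. CPM uses TMM library sizes. The 17714550 to 18729013 counts per library set the floor of 3 counts at 0.149 to 0.174 CPM, and intervals from counts cover counting error only. A group at 0 was set at 3 counts per library for "at least" folds. Exact permutation tests used SciPy 1.17.1. The edgeR step was tested on simulated data.

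The 9 genes and all lists were chosen with earlier results of these data known. Named genes are the 9 genes, FCGR3A, up to 3 higher and 3 lower DEGs of each pathway list in FR1 against hnCD16 with the largest mean CPM, and the 3 genes nearest in profile to each of the 9. The cell type markers, XRCC5, XRCC6, LIG4, the untested list members and the locus neighbours were named outside this rule, after their values were seen. Alternatives were RLE normalization, library size only (added after the data were seen), no filter on low counts, 2-group fits, a replicate block, DESeq2 1.42.0, limma 3.58.1 with a TPM pseudocount of 1 or 0.1 on the log2 scale, transcript TPM, and leaving out each library. Coordinates are from GENCODE v44 on GRCh38 and promoter windows from RefSeq on GRCh38.p14. Figures were drawn with matplotlib 3.10.9. A gene near the CD1 cluster is not reported here and was left out of the counts of neighbouring genes.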

Additional observations from a re-analysis of the deposited data

How the results depend on the processing

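The counts of 7 lower genes in each comparison of FR1 or FR2 with hnCD16 or CTRL, and of 0 between hnCD16 and CTRL, were the same under every alternative run. Leaving out each library kept them at 7 and 0. Between FR1 and FR2 the count of 1 became 0 with limma on log2(TPM + 1) and on log2(TPM + 0.1), and lay between 0 and 1 when single libraries were left out. RAG1 then had log2 fold changes of −0.15 and −0.71 with limma, and −1.71 to −0.86 without single libraries. The cause was not tested. Of V(D)J joining genes, 2 were DEGs between FR1 and hnCD16 with library size only, and 1 to 2 without single libraries. Over all genes, the 72 DEGs between hnCD16 and CTRL became 47 with only the 2 groups compared, 32 with DESeq2 and 6 with limma on log2(TPM + 1), and the 264 between FR1 and FR2 became 58 with limma on log2(TPM + 1).

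Values near 0 changed sign. CD1C in hnCD16 against CTRL was −0.03 with limma on log2(TPM + 1) and −0.03 on log2(TPM + 0.1). CD1D in FR1 against FR2 was −0.04 with library size only and 0.00 in both limma fits. CD34 in hnCD16 against CTRL was −0.06 with library size only, and −0.02 and −0.05 with limma. Without single libraries, CD1B in hnCD16 against CTRL ranged from −0.17 to 0.08 and CD1D in FR1 against FR2 from −0.39 to 0.43. CD34 ranged from −0.30 to 0.06 (FR1 against hnCD16), −0.34 to 0.23 (FR1 against CTRL), −0.40 to 0.19 (FR2 against CTRL), −0.22 to 0.34 (hnCD16 against CTRL) and −0.11 to 0.22 (FR1 against FR2). MEIS1 (0.93 and 0.83 with limma on log2(TPM + 1)) and TOX (0.98 with library size only, 0.96 and 0.99 with limma) fell below the fold threshold. With library size only, the median of all genes moved to −0.22 for FR1 and −0.17 for FR2 against CTRL.

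Same-numbered libraries did not deviate together in every pair. Correlations of each pair's differences from the means of its groups lay between 0.0196 and 0.404 for hnCD16 and CTRL. Their mean was 0.254. The mean for libraries with different numbers, −0.127, largely follows from taking differences from means of 3 libraries and is no separate contrast. Whether these 2 groups share some replicate effect was not tested. The main fit did not take the numbers as pairs, and a replicate block was run as an alternative. With the replicate block, 7 genes were lower in each of the same 4 comparisons, 0 were DEGs in hnCD16 against CTRL, 1 was a DEG in FR1 against FR2, and the DEGs between FR1 and hnCD16 numbered 5247 in place of 5234. CD34 and the counts left in FR1 and FR2 are limited by depth.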
